A study of Mus musculus with 6 samples.

Results

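The transcription factor Nrf2, encoded by Nfe2l2, and 7 antioxidant genes that it is known to switch on (Gclc, Gclm, Slc7a11, Txnrd1, Prdx1, Srxn1 and Nqo1) were followed in RNA from Cd11b-enriched cells of mouse hearts. The 8 genes were chosen by name, and all 8 were found among 55487 gene identifiers and passed the filter on low counts, which kept 15707 genes. The KO group held 3 pools with Egfr, the epidermal growth factor receptor gene, deleted in myeloid cells (Egfr mKO). The WT group held 3 pools carrying floxed Egfr (Egfr f/f) with no deletion. All mice were C57BL/6, and each pool joined the hearts of 5 animals, or of 6 in KO pool 3. The sources used here give no age, no treatment and no promoter for the deletion. Hearts were digested with collagenase and hyaluronidase, and the non-myocyte cells were enriched on beads against Cd11b, the myeloid integrin encoded by Itgam, with no purity stated. The comparison of KO with WT addresses how expression in this preparation differs between these genotypes. Loss of the receptor cannot be told apart from any other difference between them, such as that in Lyz2 given below. Each pool counts as 1 replicate, and p-values refer to the variation among pools.

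In unstressed cells the adaptor Keap1 holds Nrf2 in the cytoplasm and hands it to a ubiquitin ligase for destruction. Oxidants and electrophiles modify Keap1, Nrf2 then accumulates, pairs with a small Maf protein and binds antioxidant response elements near its target genes. In macrophages the target genes supply glutathione, repair oxidised thiols and help to limit damage from the oxidants that the cells make themselves. Because Nrf2 is controlled largely through its protein, the RNA level of Nfe2l2 is not a measure of its activity.

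The libraries held 25199667 to 27485129 reads in genes in KO and 17780707 to 27104205 in WT. Gene levels are given in CPM, the reads of a gene scaled to the TMM-adjusted size of its library. Egfr was at 18.5, 16.0 and 17.4 CPM in the KO pools, against 54.7, 43.0 and 44.7 CPM in the WT pools, with no overlap between the groups. Lyz2, the lysozyme gene of macrophages and neutrophils, was at 17.4, 19.2 and 19.3 CPM in the KO pools, against 6700, 4074 and 4327 CPM in the WT pools. The macrophage receptor gene Csf1r was at a mean of 3051 CPM in KO and 2297 CPM in WT. Of 10 lists of cell type markers, the summed levels of 4 (endothelial, mural, mesothelial and B cell) did not overlap between the groups. The summed level of 20 endothelial markers was 2075 to 2685 CPM in KO and 3736 to 6024 CPM in WT, and all 20 had negative log2 fold changes. All 16 fibroblast markers (4381 to 6068 CPM in KO, 5145 to 16610 CPM in WT) and all 13 mural cell markers (1634 to 2442 CPM in KO, 2641 to 4334 CPM in WT) were negative too. So were the 7 tested mesothelial markers (24.7 to 42.3 CPM in KO, 44.3 to 68.4 CPM in WT) and all 11 cardiomyocyte markers (431 to 693 CPM in KO, 565 to 925 CPM in WT). The sum of 10 B cell markers was 1321 to 1924 CPM in KO and 1085 to 1262 CPM in WT, and 9 of the 10 were positive. All 16 resident macrophage markers were positive, with sums of 15840 to 16440 CPM in KO and 8744 to 15980 CPM in WT. The sum of 9 erythroid markers was 36.3 to 85.0 CPM in KO and 75.8 to 1882 CPM in WT, the highest being WT pool 1. The neutrophil sum was 3048, 837 and 871 CPM in KO pools 1 to 3 and 2491, 1238 and 662 CPM in WT pools 1 to 3. The sum of 9 classical monocyte markers was 1649 to 3576 CPM in KO and 1666 to 2356 CPM in WT. Fn1 alone made up most of that sum in every pool (1209 to 3022 CPM in KO, 1151 to 1749 CPM in WT). Of the 9 genes 6 were positive and 3 negative, so the sum is a poor measure of the list. No marker in these 10 lists was at 0 in all libraries, and none passed the test across all genes. KO pool 1 and WT pool 1 expressed Y-linked genes (summed level of 4 genes 234 and 240 CPM), while the other 4 pools had 0.0931 to 0.938 CPM. In such mixed samples fewer cells of a type and less RNA per cell cannot be told apart. This holds for the lower Egfr level too. It stands beside lower endothelial, mural and fibroblast markers, whose part in it was not tested.

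None of the 8 genes passed the test of KO against WT (edgeR's quasi-likelihood test with Benjamini-Hochberg adjustment over all genes, threshold 0.05). Across all 15707 genes the same rule called 2 (0.0127%), Lyz2 and Egfr, both lower in KO. DESeq2 and limma-voom also called 0 of the 8, while they called 4.74% and 0.00637% of all genes. At an unadjusted p under 0.05 there was 1 of the 8, Nqo1, against 15.3% of all genes. Nqo1 was also the 1 gene whose KO and WT pools did not overlap, against 19.7% of all genes. The log2 fold changes of the 8 ran from -0.83 to 0.15 with a median of -0.064, beside a median of 0.0072 over all genes tested. The signs were 3 positive and 5 negative, against 50.8% and 49.2% of all genes.

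**Figure D1:**
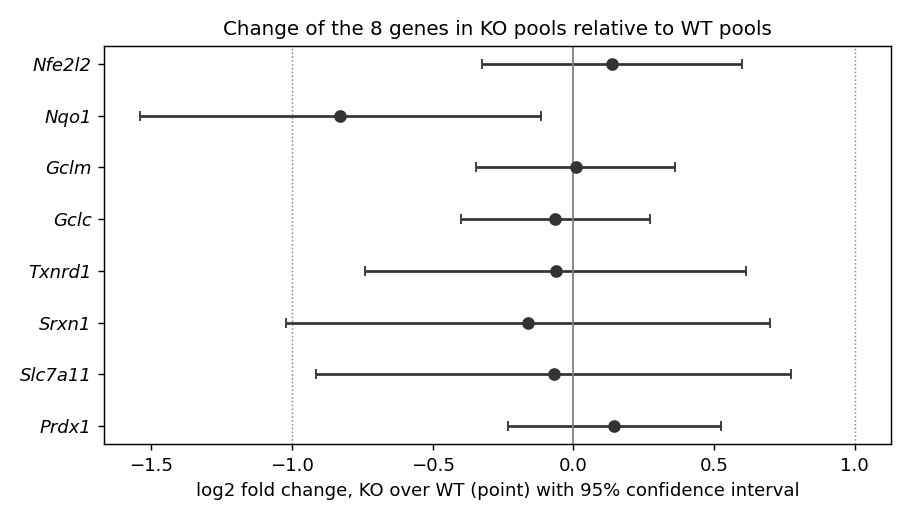
Log2 fold change of each of the 8 genes in KO relative to WT (points, edgeR, 3 pools a group) with its 95% confidence interval (bars); the solid line marks no change and the dotted lines a 2-fold change either way. Nqo1 alone has an interval that does not reach 0, and the intervals of Nfe2l2, Gclm, Gclc, Txnrd1, Slc7a11 and Prdx1 lie within a 2-fold change either way.

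The promoters of the genes are shown because the antioxidant response element is the sequence through which Nrf2 acts on its targets. RefSeq windows of 300 bases (250 before and 50 after the transcription start, GRCm38.p6) were given for 7 of the 8 genes. The window of Gclc is not shown. Each window was searched on both strands for the core of the element, TGACNNNGC, and for the form TGAGNNNGC. The core was found in the windows of 5 of the 7 genes, Nfe2l2, Gclm, Txnrd1, Srxn1 and Prdx1, and in those of 14.0% of all 27025 genes with a window. The second form was found for Srxn1, Slc7a11 and Prdx1, and for 19.8% of all genes. Of 77 genes with a window in the wider pathway lists described below, 20.8% held the core and 23.4% the second form. The 7 genes were chosen by name, so their share does not describe the wider pathway. A gene with several windows, such as Txnrd1 with 3, was counted once if any of them matched. Only the matching window of Txnrd1 is shown, and its other windows held neither form. A match is a string of letters and not a shown site of binding. Sequence outside the windows was not searched, so a gene with no match here may still have an element elsewhere. In the sequences below, read 5′ to 3′ on the strand of the gene, capitals mark the matches to either form. Those of Srxn1, Txnrd1 and Prdx1, which serve thiol repair, are set beside that of Nqo1, which had no match in this window.
Srxn1, chr2:152105274-152105573, plus strand: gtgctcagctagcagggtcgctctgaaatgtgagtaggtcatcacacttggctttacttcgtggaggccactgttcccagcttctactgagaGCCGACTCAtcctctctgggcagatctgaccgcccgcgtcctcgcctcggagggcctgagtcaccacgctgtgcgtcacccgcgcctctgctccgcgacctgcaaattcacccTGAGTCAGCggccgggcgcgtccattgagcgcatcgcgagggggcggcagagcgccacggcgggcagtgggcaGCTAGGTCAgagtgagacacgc
Prdx1, chr4:116685349-116685648, plus strand: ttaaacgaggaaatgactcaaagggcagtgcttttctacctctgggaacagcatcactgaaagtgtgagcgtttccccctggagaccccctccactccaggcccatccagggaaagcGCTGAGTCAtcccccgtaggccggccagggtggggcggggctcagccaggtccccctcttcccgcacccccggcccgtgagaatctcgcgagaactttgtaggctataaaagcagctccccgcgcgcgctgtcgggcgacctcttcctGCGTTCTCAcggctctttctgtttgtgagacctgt
Txnrd1, chr10:82858956-82859255, plus strand: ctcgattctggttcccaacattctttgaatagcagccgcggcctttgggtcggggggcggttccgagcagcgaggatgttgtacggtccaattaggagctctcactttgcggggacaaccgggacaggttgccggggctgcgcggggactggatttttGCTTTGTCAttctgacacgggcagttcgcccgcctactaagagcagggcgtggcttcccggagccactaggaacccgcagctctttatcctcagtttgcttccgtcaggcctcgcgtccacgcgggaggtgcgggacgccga
Nqo1, chr8:107403156-107403455, minus strand: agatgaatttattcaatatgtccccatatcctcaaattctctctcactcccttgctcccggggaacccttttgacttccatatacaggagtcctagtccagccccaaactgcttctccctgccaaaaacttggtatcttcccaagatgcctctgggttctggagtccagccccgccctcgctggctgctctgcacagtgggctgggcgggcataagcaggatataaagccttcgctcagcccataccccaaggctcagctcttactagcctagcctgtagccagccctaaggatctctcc
The Prdx1 match to the core, printed GCTGAGTCA because it lies on the opposite strand, begins 133 bases before the start and also holds the letters TGAGTCA, to which the AP-1 factors are known to bind. The same letters lie in the Srxn1 match TGAGTCAGC, which begins 45 bases before the start, while its match to the core, GCTAGGTCA, begins 28 bases after it. The matches of Gclm (GCACCGTCA, 134 bases before the start), Txnrd1 (GCTTTGTCA, 92 bases before) and Nfe2l2 (TGACTCCGC, 240 bases before) hold neither TGAGTCA nor TGACTCA.

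Nfe2l2 (ENSMUSG00000015839, chromosome 2, 75675513 to 75704641, minus strand, GRCm38) encodes the transcription factor Nrf2 itself. It was at 356, 249 and 319 CPM in KO pools 1 to 3 and at 345, 223 and 273 CPM in WT pools 1 to 3. The groups overlapped, and in each of them pool 1 was the highest and pool 2 the lowest. Its mean was 308 ± 54.5 CPM in KO and 280 ± 61.1 CPM in WT (SD, n = 3 each). KO over WT, this was a log2 fold change of 0.14 (SE 0.20, adjusted p = 0.791 by edgeR), with a 95% confidence interval of 0.798 to 1.51 for the fold. Without WT pool 2 it was -0.012. With the mean level of endothelial, mural and fibroblast markers (the vessel wall and fibroblast level) as a covariate it was -0.066 (SE 0.35).

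The 3 genes nearest to Nfe2l2 in the size and direction of their deviations over the 6 pools were none of its 7 targets. Nearness was measured as the root mean square difference of log2 CPM, each gene centred on its own mean, among 13815 genes with a mean of at least 1 CPM. A gene that rises and falls with Nfe2l2 but more widely thus ranks as distant. Tnfrsf1a, a receptor for tumour necrosis factor, was closest at 0.041, followed by Atg2a, a lipid transfer protein of autophagy, at 0.047, and Tbc1d10a, which encodes a Rab GTPase-activating protein, at 0.059. Of the targets, Gclm came nearest at 0.16 and ranked 560, with Gclc ranked 628, Prdx1 1152 and Txnrd1 4683. Srxn1 ranked 7336, Slc7a11 9888 and Nqo1 11281. Alone of the targets, Srxn1 deviated from its mean in the same direction as Nfe2l2 in all 6 pools, but more widely (SD between pools of a group 0.62, against 0.29). These ranks describe 6 libraries and carry no test.

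Glutathione is made in 2 steps, and the first is carried out by glutamate-cysteine ligase, whose catalytic subunit is encoded by Gclc and whose modifier subunit is encoded by Gclm. Gclc (ENSMUSG00000032350, chromosome 9, 77754535 to 77794485, plus strand) was at 53.5, 42.4 and 57.9 CPM in KO pools 1 to 3 and at 59.1, 47.6 and 53.9 CPM in WT pools 1 to 3. The values of the groups overlapped, with a log2 fold change of -0.064 (SE 0.15, adjusted p = 0.873 by edgeR). The interval for the fold, 0.757 to 1.21, left out a change of 1.5-fold in either direction. The sign turned without WT pool 1 (0.019) or KO pool 2 (0.060).

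Gclm (ENSMUSG00000028124, chromosome 3, 122245557 to 122270732, plus strand) was at 30.6, 30.2 and 33.1 CPM in KO pools 1 to 3 and at 37.4, 25.6 and 30.4 CPM in WT pools 1 to 3. The 3 KO pools lay inside the range of the WT pools. Means were 31.3 ± 1.56 CPM in KO and 31.1 ± 5.96 CPM in WT (SD, n = 3 each), with a log2 fold change of 0.0076 (SE 0.15, adjusted p = 0.985 by edgeR) and an interval for the fold of 0.787 to 1.28. The sign turned without WT pool 2 (-0.12), WT pool 3 (-0.0081) or KO pool 3 (-0.042). Exons of Gclm overlap those of Gm6061 on the same strand, which had 5 to 14 reads per library, so reads in the shared part may have been assigned to neither.

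Slc7a11 (ENSMUSG00000027737, chromosome 3, 49892526 to 50443614, minus strand) encodes the xCT subunit of the transporter that imports cystine for glutathione synthesis in exchange for glutamate. Its level was 52.0, 18.7 and 31.0 CPM in KO pools 1 to 3 and 41.9, 41.0 and 23.9 CPM in WT pools 1 to 3. Both the highest and the lowest of the 6 values were in KO pools. The log2 fold change was -0.071 (SE 0.36, adjusted p = 0.947 by edgeR), and the interval for the fold ran from 0.530 to 1.71. Leaving out KO pool 1 gave -0.51, and the sign turned without KO pool 2 (0.22), WT pool 1 (0.070) or WT pool 2 (0.030).

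Txnrd1 (ENSMUSG00000020250, chromosome 10, 82833951 to 82897712, plus strand) encodes cytosolic thioredoxin reductase, the selenoenzyme that returns thioredoxin to its reduced form with electrons from NADPH. It was at 340, 245 and 491 CPM in KO pools 1 to 3 and at 506, 298 and 320 CPM in WT pools 1 to 3. KO pool 3 and WT pool 1 stood above the other 4 pools, 1 from each genotype. The log2 fold change was -0.064 (SE 0.29, adjusted p = 0.941 by edgeR), with an interval for the fold of 0.598 to 1.53. It was 0.22 without WT pool 1, 0.15 without KO pool 2 and -0.37 without KO pool 3.

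Srxn1 (ENSMUSG00000032802, chromosome 2, 152105516 to 152111376, plus strand) encodes sulfiredoxin, which restores overoxidised peroxiredoxins. It was at 102, 53.9 and 117 CPM in KO pools 1 to 3 and at 156, 65.9 and 82.8 CPM in WT pools 1 to 3. As for Txnrd1, WT pool 1 was the highest, KO pool 3 came next and KO pool 2 was the lowest, a 2.90-fold range over the 6 pools. Its log2 fold change was -0.16 (SE 0.37, adjusted p = 0.873 by edgeR), and the interval for the fold, 0.493 to 1.62, reached just past a 2-fold lower level. It was 0.29 without WT pool 1, 0.11 without KO pool 2 and -0.40 without WT pool 2.

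Prdx1 (ENSMUSG00000028691, chromosome 4, 116685544 to 116700822, plus strand) encodes a peroxiredoxin, a thiol enzyme that breaks down hydrogen peroxide and is among the proteins that sulfiredoxin repairs. Its level was 232, 236 and 292 CPM in KO pools 1 to 3 and 262, 187 and 238 CPM in WT pools 1 to 3. The groups overlapped, with KO pool 3 the highest and WT pool 2 the lowest. On the log2 scale the change was 0.15 (SE 0.16, adjusted p = 0.723 by edgeR), and the interval for the fold was 0.850 to 1.44. It stayed positive in all fits that left out 1 library, with 0.013 without WT pool 2.

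Nqo1 (ENSMUSG00000003849, chromosome 8, 107388225 to 107403206, minus strand) encodes a quinone reductase, a classical readout of Nrf2 activity. It was counted 36, 30 and 42 times in KO pools 1 to 3 and 53, 43 and 68 times in WT pools 1 to 3. These counts corresponded to 1.38, 1.18 and 1.63 CPM in the KO pools and 2.04, 2.24 and 3.17 CPM in the WT pools. The KO pools all lay below the WT pools, and the KO mean of 1.40 ± 0.227 CPM was 56.2% of the WT mean of 2.48 ± 0.601 CPM (SD, n = 3 each). The log2 fold change was -0.83 (SE 0.31), with an interval for the fold of 0.344 to 0.923. Over all genes it did not pass (unadjusted p = 0.0280, adjusted p = 0.268 by edgeR) and ranked 1640 of 15707 by p. No setting that kept Nqo1 called it, and its adjusted p-values were between 0.143 and 1.00. The log2 fold change stayed between -0.96 and -0.61 on leaving out 1 library. With the vessel wall and fibroblast level as a covariate it was -0.17 (SE 0.51). The endothelial and mural sums did not overlap between the groups, so this fit cannot fully separate that level from the genotype. The 6 pools stood in the same order by Nqo1 and by the summed level of the 20 endothelial markers, from KO pool 2 (2075 CPM endothelial), KO pool 1 (2099) and KO pool 3 (2685) to WT pool 1 (3736), WT pool 2 (3946) and WT pool 3 (6024). The summed level of the 13 mural markers gave the same order, from 1634 CPM in KO pool 2 to 4334 CPM in WT pool 3. None of the other marker lists did. The fibroblast sum, for example, was lowest in KO pool 3 (4381 CPM). The order shared by Nqo1 and the endothelial and mural sums was noticed after the values were seen and is a description with no test.

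**Figure D2:**
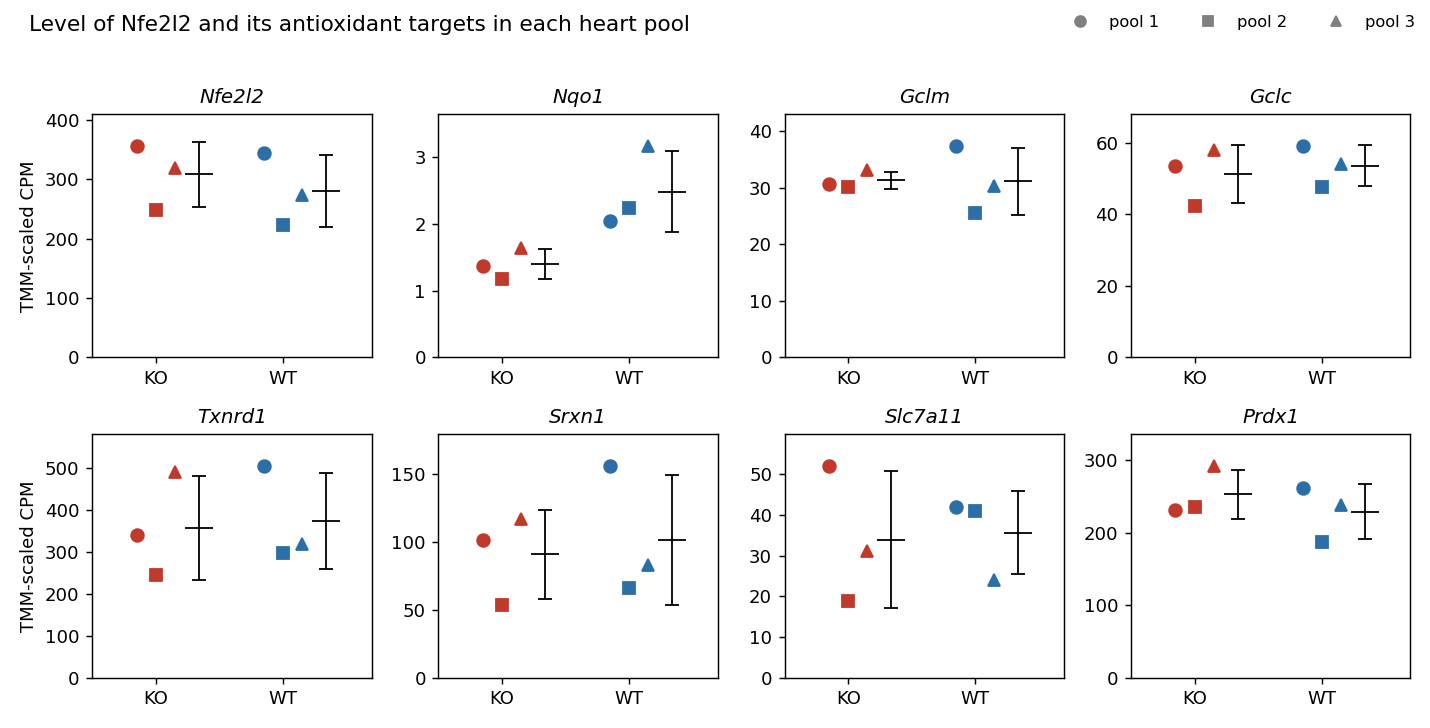
TMM-scaled CPM of each gene in the 3 KO pools (left, red) and the 3 WT pools (right, blue), with the marker shape giving the pool number and the black bars the mean and SD of the group; each vertical axis starts at 0 and has its own range. Apart from Nqo1, where the 3 KO pools lie below the 3 WT pools, the values of the groups overlap, and the 6 values of Srxn1, Txnrd1 and Slc7a11 are spread widely within each genotype.

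To compare levels between genes, CPM were divided by the merged exon length of each gene in kilobases. Prdx1 (83.3 ± 11.1 in KO, 75.3 ± 12.5 in WT) and Nfe2l2 (81.2 ± 14.4 in KO, 73.9 ± 16.1 in WT) had the highest levels in CPM per kb (SD, n = 3 each). Txnrd1 followed with 50.6 ± 17.5 CPM per kb in KO and 52.9 ± 16.1 in WT, and Srxn1 with 32.2 ± 11.7 in KO and 36.0 ± 17.0 in WT. The ranges of neighbours among these 4 genes overlapped, but within a pool Nfe2l2 was above Txnrd1 and Txnrd1 above Srxn1 in 6 of 6 pools. Prdx1 was above Nfe2l2 in 4 of 6 pools, so that their order differed between pools. Below them stood Gclc (11.3 to 15.7 CPM per kb over the 6 pools) and Gclm (4.07 to 5.95), whose ranges did not touch each other or that of Srxn1. Slc7a11 (1.35 to 3.73) and Nqo1 (0.759 to 2.04) were lowest, with overlapping ranges, and Slc7a11 was above Nqo1 in 5 of 6 pools. Merged exons include those of rare isoforms, so the level per length of a gene with long alternative exons, such as Slc7a11 with 13922 bases, can be understated.

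The 8 genes differed in how widely pools of the same genotype were spread. WT pool 1 had the highest value of 4 genes (Gclm, Gclc, Txnrd1 and Srxn1), and KO pool 2 had the lowest value of 5 (Nqo1, Gclc, Txnrd1, Srxn1 and Slc7a11), while WT pool 2 was lowest for Nfe2l2, Gclm and Prdx1. The SD of log2 CPM between pools of a group was 0.62 for Srxn1, 0.61 for Slc7a11 and 0.46 for Txnrd1. The 1000 tested genes nearest to each of them in level had medians of 0.16, 0.16 and 0.18. Nfe2l2 (0.29, against 0.18), Gclm (0.20, against 0.16), Gclc (0.20, against 0.15) and Prdx1 (0.22, against 0.17) were nearer to genes of their level. For Nqo1 the SD of 0.28 lay below the 0.43 of genes at its level, where counting error is larger. These are descriptions of the 6 libraries with no test.

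**Figure D3:**
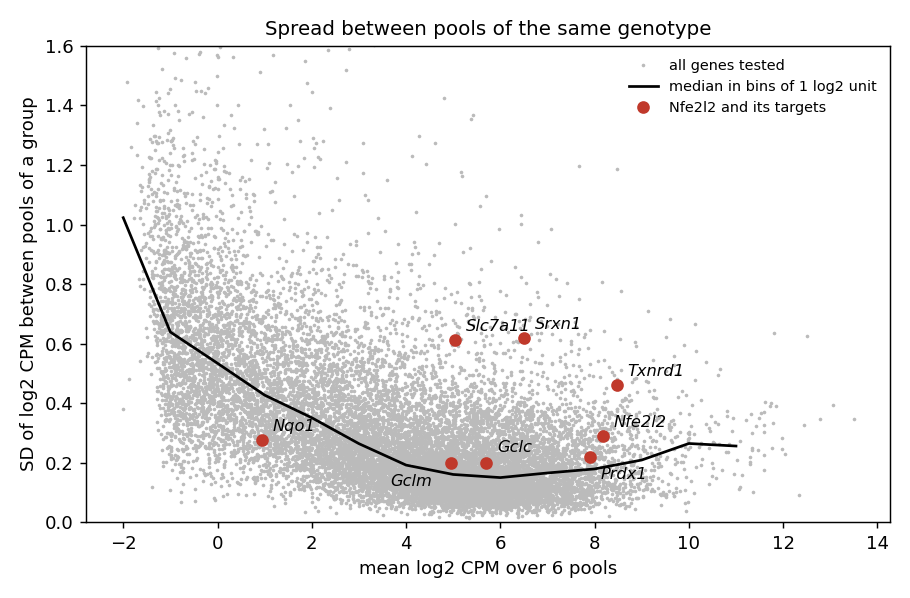
SD of log2 CPM between pools of the same genotype (vertical axis) against mean log2 CPM over 6 pools (horizontal axis) for all genes tested (grey points), their median in bins of 1 log2 unit (black line) and the 8 genes (red); 96 genes above an SD of 1.6 are not drawn. Srxn1, Slc7a11 and Txnrd1 stand well above the line at their level, and Nqo1 below it.

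Txnrd1 and Srxn1 ran alike over the pools, with a root mean square difference of 0.19 in centred log2 CPM. For Gclm and Prdx1 the difference was 0.10, but these genes also varied less, which by itself makes it smaller. The haem-degrading enzyme gene Hmox1, another target of Nrf2, was highest in the same pools as Txnrd1 and Srxn1, with 1002, 562 and 1143 CPM in KO pools 1 to 3 and 1251, 415 and 677 CPM in WT pools 1 to 3. The resident macrophage sum was similar in KO pool 3 (16440 CPM), WT pool 1 (15980 CPM) and KO pool 1 (15920 CPM). It was also similar in KO pool 2 (15840 CPM), the pool lowest for Txnrd1 and Srxn1. KO pool 1 was close to KO pool 3 for Srxn1 (102 against 117 CPM) and Hmox1 (1002 against 1143 CPM), but not for Txnrd1 (340 against 491 CPM). Why KO pool 3 and WT pool 1 were the highest for Txnrd1, Srxn1 and Hmox1 was not tested.

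**Figure D4:**
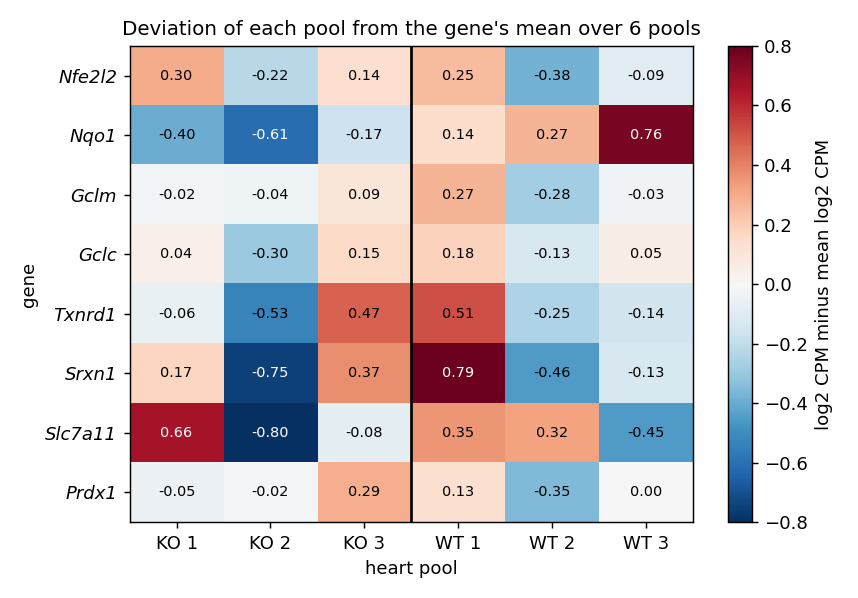
Log2 CPM of each gene in each pool minus the mean of that gene over the 6 pools, with genes down the page and pools across it (KO left of the line, WT right); red is above the mean and blue below. Txnrd1 and Srxn1 are above their mean by 0.37 to 0.79 in KO pool 3 and WT pool 1 and lowest in KO pool 2, while Nqo1 is below its mean in all 3 KO pools and above it in all 3 WT pools.

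Because the pools with Y-linked expression were 1 of each genotype, the comparison was also made within each kind of pool. Between the pair with Y-linked expression, the log2 ratio of KO pool 1 to WT pool 1 was -0.57 for Txnrd1, -0.62 for Srxn1 and -0.54 for Nqo1. It was -0.29 for Gclm, -0.18 for Prdx1, -0.15 for Gclc, 0.048 for Nfe2l2 and 0.31 for Slc7a11, with 1 pool a side and no test. Among the 4 other pools, 2 of each genotype, the log2 fold change was 0.22 (SE 0.32) for Txnrd1, 0.17 (SE 0.35) for Srxn1 and -0.97 (SE 0.41) for Nqo1. It was 0.15 for Gclm, 0.28 for Prdx1, -0.051 for Gclc, 0.16 for Nfe2l2 and -0.43 for Slc7a11. None of the 8 passed there (edgeR adjusted p from 0.270 to 0.923), where 2.58% of all genes were called. Gclm, Prdx1, Txnrd1, Srxn1 and Slc7a11 thus had opposite signs in the separate comparisons, and Nqo1, Gclc and Nfe2l2 had the same sign. With the Y-linked level as a covariate over all 6 pools, Nqo1 had -0.82 and Srxn1 -0.067 (edgeR adjusted p = 0.270 and 0.944).

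The wider pathway was read from 91 further genes in 6 lists, of which 87 were tested. None passed over all genes in edgeR, against 0.0127% of all genes. At an unadjusted p under 0.05 there were 4 higher and 11 lower, beside 4.77% and 10.6% of all genes. Of the 87, 8 had all KO pools above and 12 all KO pools below the WT pools, beside 9.59% and 10.1%. The median log2 fold change of the 87 was 0.069. DESeq2 called 3 of them lower, Me1, Sod3 and Cd36, beside 3.68% of all genes lower, and limma-voom called 0. Cd36, which also marks endothelial cells, is named because of this call.

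Regulators of Nrf2 had a median of 0.0060 over 14 genes, 7 positive and 7 negative. None was at an unadjusted p under 0.05 by edgeR, beside 15.3% of all genes. Keap1, the sensor that holds Nrf2, was at 49.1, 55.2 and 44.7 CPM in KO pools 1 to 3 and at 42.8, 43.2 and 51.3 CPM in WT pools 1 to 3, with a log2 fold change of 0.12 (SE 0.13). The groups overlapped for it. Bach1, a repressor that competes for the same elements, had -0.087 (SE 0.25), and the small Maf partners had 0.050 (Mafg), 0.048 (Mafk) and -0.33 (Maff, SE 0.18). Sqstm1, the p62 autophagy receptor that can sequester Keap1, had 0.027 (SE 0.28). Nfe2l1, a related transcription factor, had -0.19 (SE 0.12). Btrc, a ubiquitin ligase subunit that also recognises Nrf2, had -0.31 (SE 0.14). For both the KO values were all below the WT values, as for 10.1% of all genes. The edgeR adjusted p-values of these 8 genes were 0.354 to 0.973.

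Genes of glutathione synthesis and use had a median of -0.14 over 22 genes tested, 7 positive and 15 negative, beside 49.2% of all genes negative. At an unadjusted p under 0.05 by edgeR there were 5 lower and 0 higher, beside 10.6% and 4.77% of all genes. Gsta3, a glutathione transferase, averaged 4.02 ± 0.298 CPM in KO and 8.41 ± 3.61 CPM in WT (SD, n = 3 each), a log2 fold change of -1.06 (SE 0.34, adjusted p = 0.233 by edgeR). Gsr, which returns oxidised glutathione to its reduced form, was at 74.5, 65.5 and 70.7 CPM in KO pools 1 to 3 and at 123, 104 and 66.0 CPM in WT pools 1 to 3. Its log2 fold change was -0.48 (SE 0.21, adjusted p = 0.335 by edgeR), and WT pool 3 lay among the KO pools. Abcc4, an exporter of organic anions, had -0.37 (SE 0.13, adjusted p = 0.253 by edgeR). Slc3a2, the heavy chain that partners the product of Slc7a11, had 0.26 (SE 0.24, adjusted p = 0.656 by edgeR). The negative values of this list stand beside those of all endothelial, mural and fibroblast markers, with median log2 fold changes of -1.08, -0.90 and -1.12. The part of those cells in this list was not tested.

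Thioredoxin and peroxiredoxin genes had a median of 0.17 over 13 genes, 11 positive and 2 negative, beside 50.8% of all genes positive. None was at an unadjusted p under 0.05 by edgeR, beside 15.3% of all genes. Txn1, which encodes the thioredoxin that Txnrd1 serves, was at 117, 95.7 and 114 CPM in KO pools 1 to 3 and at 100, 83.8 and 88.6 CPM in WT pools 1 to 3. Only KO pool 2 lay among the WT values, and the log2 fold change was 0.26 (SE 0.12, adjusted p = 0.361 by edgeR). Prdx5, a mitochondrial and peroxisomal peroxiredoxin, had 0.31 (SE 0.14, adjusted p = 0.351 by edgeR), and Prdx6 had 0.071 (SE 0.11). All 16 resident macrophage markers, with a median log2 fold change of 0.42, and 9 of 10 B cell markers, with a median of 0.63, were also positive, and their part in these values was not tested.

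Enzymes that supply NADPH had a median of 0.21 over 8 genes, 7 of them positive, beside 50.8% of all genes. G6pdx, the entry enzyme of the pentose phosphate pathway, had 0.25 (SE 0.14) and cytosolic isocitrate dehydrogenase, Idh1, had 0.37 (SE 0.15, adjusted p = 0.306 by edgeR). Me1, the cytosolic malic enzyme, was the exception, with 4.85, 4.75 and 4.19 CPM in KO pools 1 to 3 and 6.46, 8.86 and 12.1 CPM in WT pools 1 to 3. The KO values were all below the WT values, with a log2 fold change of -0.99 (SE 0.25, adjusted p = 0.193 by edgeR and 0.0162 by DESeq2). Haem and iron genes had a median of 0.35 over 9 genes, 8 of them positive, again beside 50.8% of all genes. The iron exporter Slc40a1 led at 0.48 (SE 0.16, adjusted p = 0.237 by edgeR), followed by Hmox2 at 0.38 (SE 0.11, adjusted p = 0.222 by edgeR). Hmox1 had 0.21 (SE 0.42, adjusted p = 0.851 by edgeR). The positive values of both lists stand beside the same 16 of 16 positive resident macrophage markers and 9 of 10 positive B cell markers, whose part was not tested here either.

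Detoxifying and other antioxidant enzymes had a median of 0.022 over 21 genes, 11 positive and 10 negative, beside 50.8% and 49.2% of all genes. Sod3, the extracellular superoxide dismutase, was at 55.3, 44.3 and 53.0 CPM in KO pools 1 to 3 and at 63.0, 91.2 and 146 CPM in WT pools 1 to 3. Its log2 fold change was -0.98 (SE 0.28, adjusted p = 0.219 by edgeR and 0.0253 by DESeq2), and the groups did not overlap. Akr1c13, an aldo-keto reductase gene, had 0.60 (SE 0.21, adjusted p = 0.249 by edgeR). Gsta3, Me1 and Sod3, like Nqo1, were lower in every KO pool, as were the vessel wall marker sums. With the vessel wall and fibroblast level as a covariate the log2 fold changes of Gsta3, Me1 and Sod3 were 0.14, -0.18 and 0.20. The endothelial and mural sums did not overlap between the groups, so that fit cannot fully separate this level from the genotype. Without WT pool 1 edgeR called 8 genes of the 6 lists, 3 higher (Prdx5, Hmox2 and 1 other) and 5 lower (Gsta3, Me1, Sod3 and 2 others), beside 2.33% and 5.97% of all genes, and still none of the 8 members.

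**Figure D5:**
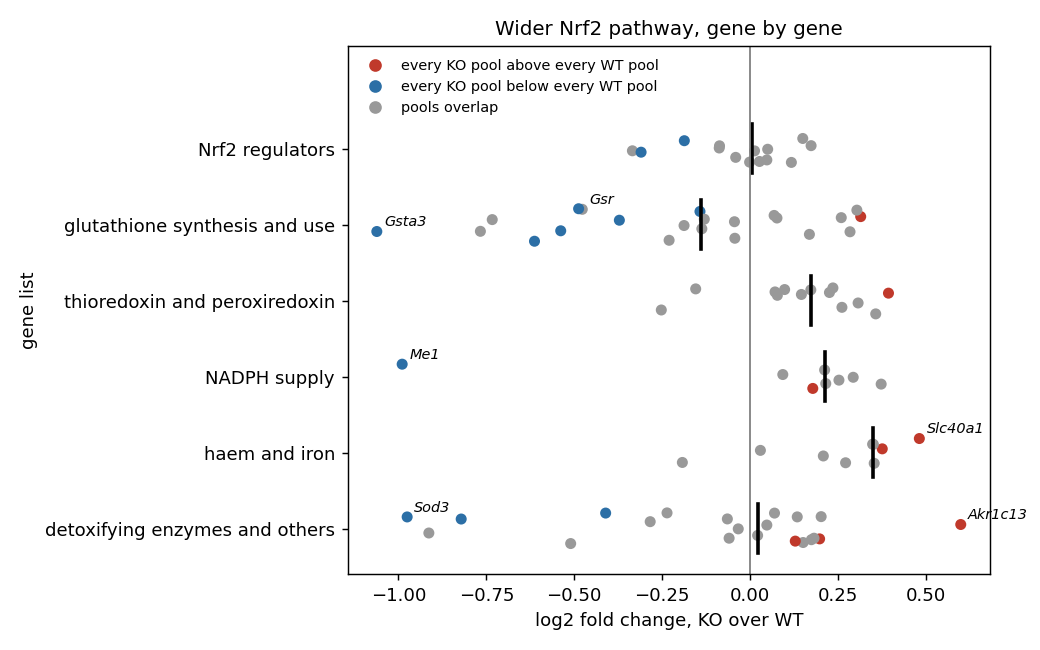
Log2 fold change of KO over WT (horizontal axis, 3 pools a group) for the 87 tested genes of the 6 further lists, each list on its own row with vertical scatter added for legibility and a black bar at its median; red and blue mark genes whose KO pools all lie above or all below the WT pools, and grey those that overlap. The medians run from -0.14 for glutathione synthesis and use to 0.35 for haem and iron, and Gsta3, Me1 and Sod3 lie farthest to the left.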

How the data were processed

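Each library's file holds the authors' deposited counts, whole-number reads per Ensembl gene with no normalization. The submitters' processing notes name STAR, HTSeq, DESeq2 and build GRCm38, without roles or versions. Neither the annotation release nor the strand handling is given in the sources used here. Per the labels' protocols, a NEBNext Ultra II Directional kit made the libraries. Counters that name no gene entered neither library sizes nor tests, and held 5.90% to 8.62% of reads outside genes, 1.49% to 1.72% in several genes and 7.58% to 8.67% aligned to several places. A symbol was matched for 55141 of 55487 identifiers. Coordinates and exon lengths are from GENCODE M21 (GRCm38) and promoters from RefSeq.

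KO was compared with WT in edgeR 4.0.16 (R 4.3.3): filterByExpr with a minimum count of 10, TMM scaling, glmQLFit and glmQLFTest with no other term, two-sided, Benjamini-Hochberg adjustment over all 15707 genes. The SE was derived as the absolute log2 fold change divided by the root of F. Pairs of libraries of 1 group differed by 38.1 to 84.9 in chi-square per degree of freedom and were kept apart. With 3 pools a side, the smallest p of an exact two-sided permutation test is 0.1. Other settings used DESeq2 1.42.0 (no independent filtering), limma-voom 3.58.1, other scalings and filters, covariates, the replicate number as a block and each library left out. Both settings on Y-linked expression were added after seeing the data. When KO against WT was simulated over 15425 genes, edgeR called 40 of the 100 genes given a 2-fold change and 81 of the 100 given a 4-fold one, with 0 of the wrong sign and 5 unchanged genes called. Each simulated gene was drawn on its own from 1 mean and its estimated dispersion. The simulation thus held no shift of cell types between pools, and the real data may yield a lower share. Vessel wall and fibroblast level means the mean log2 CPM of the endothelial, mural and fibroblast lists.

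The 8 members and all lists were chosen with earlier results of these data known. Of the further lists, 12 genes were always named, plus up to 2 of each list with the smallest p at a mean of at least 1 CPM. Egfr and Lyz2 were named as the check of the genotype. Why Lyz2 was lower in KO was not tested. For Nfe2l2 the 3 genes most like it were named. Figures were drawn with matplotlib 3.10.9.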

Additional observations from a re-analysis of the deposited data

How the results depend on the processing

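The count of 0 of the 8 members called held under all 18 other settings. The count over all genes was 2, and it was 744 with DESeq2, 782 with no expression filter, 860 with the erythroid level as a covariate, 407 in the 4 pools without Y-linked expression, and 1 both with limma-voom and with the vessel wall and fibroblast level as a covariate. Leaving out 1 library gave 1 to 1338 genes, the highest without WT pool 1. Of the further pathway genes 0 were called in the main fit. There were 3 with DESeq2 (beside 4.74% of all genes) and 2 with no expression filter (beside 2.7%). The erythroid covariate gave 5 (beside 5.48%), and the 4 pools without Y-linked expression gave 3 (beside 2.58%). Leaving out 1 library gave 0 to 8, the 8 without WT pool 1 (beside 8.3% of all genes). WT pool 1 had the highest erythroid level, 1882 CPM summed over 9 markers.

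Among the 8 members and the further genes named, signs turned only where given here. With the erythroid covariate the log2 fold change was 0.084 for Gclc, 0.40 for Txnrd1, 0.55 for Srxn1 and 0.31 for Bach1. With the vessel wall and fibroblast covariate it was -0.066 for Nfe2l2, -0.20 for Gclm, -0.17 for Mafg, 0.033 for Nfe2l1, -0.19 for Sqstm1, -0.31 for Hmox1, -0.13 for G6pdx, 0.14 for Gsta3, -0.041 for Prdx5 and 0.20 for Sod3. In the 4 pools without Y-linked expression it was 0.22 for Txnrd1, 0.17 for Srxn1, 0.12 for Bach1 and -0.029 for Prdx6. With no scaling it was -0.024 for Gclm and -0.0002 for Sqstm1, and at a mean CPM of at least 5, a filter that removed Nqo1, it was -0.015 for Gclm. On leaving out 1 library the values ran from -0.012 to 0.32 for Nfe2l2, -0.12 to 0.17 for Gclm, -0.17 to 0.060 for Gclc, -0.37 to 0.22 for Txnrd1, -0.40 to 0.29 for Srxn1 and -0.51 to 0.22 for Slc7a11. They ran from -0.28 to 0.18 for Bach1, -0.16 to 0.29 for Mafg, -0.21 to 0.26 for Mafk, -0.20 to 0.29 for Sqstm1 and -0.10 to 0.73 for Hmox1. The cause was not tested.

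The replicate block (number of the pool as a term) gave 3 calls in edgeR, 2 higher and 1 lower, and none of the 8. Samples of the same number did not deviate together (correlations over genes 0.097, -0.16 and 0.006), so the numbers are not taken to pair the pools. The KO and WT pools share no animals by their labels. With 30 to 68 reads per library, Nqo1 is the member for which depth limits the precision most.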
